A study of Homo sapiens with 16 samples.

Results

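Batch 1 of this RNA-seq series comprised 4 of its 16 libraries, 1 for each construct group, and was compared with the 8 libraries of batches 3 and 4. The batch numbers are those of the sample labels, which do not say what the libraries of a batch shared. Batch 1 was chosen for description by measured values, with the expression differences between the batches already known, and the same choice left out the 4 libraries of batch 2. Every difference between batch 1 and batches 3 and 4 is therefore given as a description of these 12 libraries. It is 1 batch set against 2, a call measures the spread between libraries only, and the numbers of calls are descriptions too. The labels do not state whether the libraries of a group came from separate cultures.

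All libraries came from SK-N-BE(2), an established line of human neuroblastoma in which MYCN is amplified. The labels give a WT group and 3 groups transfected with a form of HIF-2α, the oxygen-regulated transcription factor encoded by EPAS1: the full-length protein (FL), NCTAD and cIDR. The series' design text names the last 2 as deletions (ΔN-CTAD, Δc-IDR). Columns of the deposited tables carry other names: BE2c for the line, CTRL for the group labelled WT, WT for FL and NTAD for NCTAD. Groups follow the sample labels. All cells grew at 21% oxygen in medium with 10% serum, and the vector, the time after transfection and any mock treatment of the WT cells are not given in the sources used here. About 250 ng of RNA went into each stranded poly(A) library, amplified over 13 PCR cycles.

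Cells make cholesterol from acetyl-CoA through the mevalonate pathway, and the transcription factor SREBP-2 (SREBF2) switches on almost every enzyme of that route when sterols in the endoplasmic reticulum (ER) run low. SREBP-1 (SREBF1) does the same mainly for fatty acid synthesis. Ribosomal protein mRNAs start with a tract of pyrimidines and are regulated as 1 family, while chaperones of the ER follow the load of secreted and membrane proteins.

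Libraries held 38.6 to 46.9 M counts in batch 1 and 41.4 to 56.1 M in batches 3 and 4. Of 19651 genes tested with edgeR's quasi-likelihood fit, 2885 (14.7%) were called, meaning a Benjamini-Hochberg adjusted p under 0.05. Called higher in batch 1 were 1559 genes (7.93%), and called lower were 1326 (6.75%). The differences were mostly small. The median absolute log2 difference of the called genes was 0.29, and 115 reached 1 in either direction, 27 of them higher and 88 lower. In 1741 genes (8.86%) the 4 batch 1 libraries did not overlap the 8 others in the direction of the fitted difference. Leaving out the NCTAD library of batch 1 left 1204 calls, and leaving out its FL library left 1879. Against batch 3 alone 752 genes were called, against batch 4 alone 95, and 92 were called in the same direction in both. On log2(TPM + 1), where TPM is transcripts per 1 M, limma called 595 genes, and 36.3% of them were higher in batch 1, against 54% of the genes called on counts. The root mean square log2 difference between libraries of the same construct averaged 0.63 between batches 1 and 3, 0.64 between batches 1 and 4 and 0.55 between batches 3 and 4. It was 0.79 between batches 1 and 2.

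The cholesterol pathway was the group of genes with the largest positive median difference among the lists used here. Of its 24 measured members, 20 were called higher in batch 1, none was called lower, and all 24 had a positive difference. Their median log2 difference was 0.51, against -0.005 over all genes tested. Taken alone, the WT libraries gave 0.39, FL 0.47, NCTAD 0.60 and cIDR 0.49. In 18 members all 4 batch 1 libraries lay above all 8 others. Against batch 3 alone 18 members were called, and against batch 4 alone 11. Between batches 4 and 3 the median of the same members was 0.02.

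To show the regulatory sequence of the leading genes, the 250 bases before the annotated start are given for 3 of the 4 members with the smallest p, from RefSeq (GRCh38.p14), written 5′ to 3′ on the coding strand. Capitals mark CCAAT or its complement ATTGG, the box bound by NF-Y, a factor known to act beside SREBP at sterol genes. HMGCS1 (chr5:43313413-43313662, minus strand) holds 2 such boxes, MVD (chr16:88663092-88663341, minus strand) 3 and MVK (chr12:109573544-109573793, plus strand) 5. These promoters were picked after the expression values had been seen.
HMGCS1: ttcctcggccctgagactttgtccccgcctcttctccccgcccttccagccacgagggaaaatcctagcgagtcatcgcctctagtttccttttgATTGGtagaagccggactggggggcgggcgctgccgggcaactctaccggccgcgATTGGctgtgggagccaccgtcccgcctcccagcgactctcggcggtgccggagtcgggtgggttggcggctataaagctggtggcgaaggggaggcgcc
MVD: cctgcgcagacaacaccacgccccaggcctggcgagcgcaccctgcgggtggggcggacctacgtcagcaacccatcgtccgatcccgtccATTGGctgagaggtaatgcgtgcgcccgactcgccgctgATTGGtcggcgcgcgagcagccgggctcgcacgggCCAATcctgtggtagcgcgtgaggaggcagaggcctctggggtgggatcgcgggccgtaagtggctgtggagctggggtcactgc
MVK: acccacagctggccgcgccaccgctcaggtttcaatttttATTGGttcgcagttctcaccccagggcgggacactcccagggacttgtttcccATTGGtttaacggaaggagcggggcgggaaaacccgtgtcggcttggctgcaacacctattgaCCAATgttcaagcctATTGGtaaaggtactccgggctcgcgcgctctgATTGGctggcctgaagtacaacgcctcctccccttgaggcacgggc
Promoter entries were found for 18 of the 24 measured members. CCAAT on either strand occurred in 15 of the 18 (83.3%) and in 33% of all 27305 promoters of the same length. TCACNCCAC, a core form of the sterol regulatory element, was found on either strand in 1 of the 18 (5.56%, in SREBF2) and in 0.875% of all promoters. These are matches of letters in 1 window and were not tested as binding sites.

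The early enzymes of the pathway were among its clearest members. ACAT2, which joins 2 molecules of acetyl-CoA, stood at 192, 214, 198 and 181 CPM (counts per 1 M counts) in the WT, FL, NCTAD and cIDR libraries of batch 1, and at 111 to 130 CPM with a median of 116 in batches 3 and 4. The groups did not overlap, and the log2 difference was 0.72 ± 0.04 (SE). HMGCS1, which makes HMG-CoA, read 524, 456, 514 and 500 CPM in the same order, against 302 to 349 CPM with a median of 319. Every batch 1 library was above the highest of the others, at a log2 difference of 0.63 ± 0.05.

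MVK, mevalonate kinase, read 73.0, 81.0, 87.5 and 79.5 CPM in batch 1 against 48.1 to 52.7 CPM with a median of 51.3, a log2 difference of 0.63 ± 0.04. MVD, which decarboxylates mevalonate diphosphate and carries 3 of the boxes shown above, read 79.9, 99.0, 91.4 and 85.4 CPM against 50.3 to 54.4 CPM with a median of 51.2. Its log2 difference of 0.76 ± 0.05 was the largest of the list. PMVK, the kinase between these 2 enzymes, was not called (0.09 ± 0.07).

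The later steps of the pathway follow, and these members were named after their values had been seen. FDPS and FDFT1, which build farnesyl diphosphate and squalene, differed by 0.52 ± 0.05 and 0.61 ± 0.05 on the log2 scale. LSS, which closes the sterol ring, differed by 0.55 ± 0.06, and SQLE, which oxidises squalene before it, by 0.23 ± 0.07 with overlapping groups. Of the enzymes that turn lanosterol into cholesterol, DHCR7 (0.54 ± 0.05), MSMO1 (0.52 ± 0.05) and HSD17B7 (0.61 ± 0.06) were called with no overlap, while SC5D was not called (0.01 ± 0.05). TM7SF2, EBP, NSDHL and CYP51A1 were called with differences from 0.30 ± 0.04 (CYP51A1) to 0.51 ± 0.07 (TM7SF2). Genes that sense or carry sterols were on the same side. INSIG1, which holds SREBP in the ER, differed by 0.55 ± 0.05 and the sterol carrier STARD4 by 0.22 ± 0.06 with overlapping groups. The mRNA of SREBF2 itself was not called (0.12 ± 0.06). On the per-length scale the called members named here spanned mean levels of 15.8 TPM (TM7SF2) to 302 TPM (FDPS) in batch 1.

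Of 16 measured fatty acid genes 8 were called higher, none was called lower and 8 were not called, with a median log2 difference of 0.28. ACACB (-0.15 ± 0.09) and ME1 (-0.009 ± 0.06) had negative differences. Against batch 4 alone 2 members were called. SREBF1, the regulator of this branch, read 99.6, 123, 117 and 119 CPM in batch 1 against 68.6 to 73.9 CPM with a median of 72.6. No library of batch 1 overlapped the others, and the log2 difference was 0.66 ± 0.05. ACSS2, which makes acetyl-CoA from acetate, read 30.3, 31.1, 29.3 and 31.5 CPM against 19.1 to 21.2 CPM, a difference of 0.60 ± 0.04. The desaturase FADS2 (0.37 ± 0.05) and the elongase ELOVL6 (0.28 ± 0.04) were also separated from the other batches. FASN and ACACA, which build palmitate, and SCD, which desaturates it, differed by 0.30 ± 0.06, 0.33 ± 0.05 and 0.37 ± 0.06. On log2(TPM + 1) the list's median was 0.09 and 3 of 15 members were called.

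CPT1A, the gate for fatty acid entry into mitochondria and thus for fatty acid burning, was lower in batch 1 and had the smallest p of all genes. It read 28.0, 28.5, 32.1 and 29.5 CPM in batch 1 against 54.2 to 59.0 CPM with a median of 55.8. The batch 1 libraries lay close together and far below the others, and the log2 difference was -0.95 ± 0.05. In batch 2 it read 22.9 to 30.5 CPM. No list of fatty acid oxidation genes was made, so these values describe 1 gene and not that pathway.

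Cytosolic ribosomal proteins were the list with the largest share of called members. Of 75 measured members 66 were called higher, none was called lower, and 34 did not overlap. The median log2 difference was 0.26. Within constructs the median was 0.17 (WT), 0.39 (FL), 0.42 (NCTAD) and 0.12 (cIDR), so that it varied more between constructs than that of the cholesterol genes. RPS10 read 609, 743, 730 and 635 CPM in batch 1 against 477 to 565 CPM with a median of 511. RPL29 read 398, 493, 482 and 426 CPM against 338 to 386 CPM with a median of 348. RPL3 read 1649, 2045, 1983 and 1742 CPM against 1367 to 1584 CPM with a median of 1449. In each of these the FL and NCTAD libraries were the highest, and all 4 libraries were above the others. The log2 differences were 0.38 ± 0.06, 0.33 ± 0.05 and 0.33 ± 0.05. Ribosomal proteins have many processed pseudogenes of near-identical sequence, so the split of their reads by the authors' quantification is uncertain.

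The 30 bases around the annotated start of these 3 genes are shown because this family is marked by a C followed by a run of pyrimidines at the start of its transcripts. Capitals mark a C followed by at least 5 pyrimidines, searched on the transcribed strand only, in windows of RefSeq (GRCh38.p14) that begin 15 bases before the start. RPS10 lies at chr6:34426055-34426084, RPL29 at chr3:51995881-51995910 and RPL3 at chr22:39319609-39319638, all on the minus strand.
RPS10: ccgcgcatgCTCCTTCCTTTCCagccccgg
RPL29: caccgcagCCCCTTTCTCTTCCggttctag
RPL3: gtaaggccgaccggcctctaccggcgggat
The window of RPL3 held no such run. Of 75 measured members, 60 had a promoter entry, and 50 of the 60 (83.3%) held the run, against 24% of all 27305 start windows.

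Ribosomal proteins are also short genes, and transcript length moved with the batch difference. Their median effective length was 0.246 of the median over all genes tested. After per-library trends with length and GC content had been taken out, an alternative added after seeing the data, the list's median was 0.08 and 25 of 75 members were called. There were 11 calls on log2(TPM + 1) at a median of 0.183, 12 on log2(TPM + 0.1) at a median of 0.184, and 32 on counts without the NCTAD library of batch 1. Against batch 3 alone 31 were called, and against batch 4 alone none, with a median of 0.22. Factors that assemble ribosomes had a median of 0.14, with 13 of 34 called higher and none lower. Without the NCTAD library of batch 1 7 were called, against batch 3 alone 3 and against batch 4 alone none. Among the 13 were the nucleolar methyltransferase FBL (0.36 ± 0.06), NOP16 (0.30 ± 0.05), PES1 (0.31 ± 0.06) and NOP2 (0.19 ± 0.04), all without overlap. Their effective length was not short, at 1.18 of the median gene. On log2(TPM + 1) the median of these factors was 0.05 with 2 called higher and 1 lower.

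**Figure D1:**
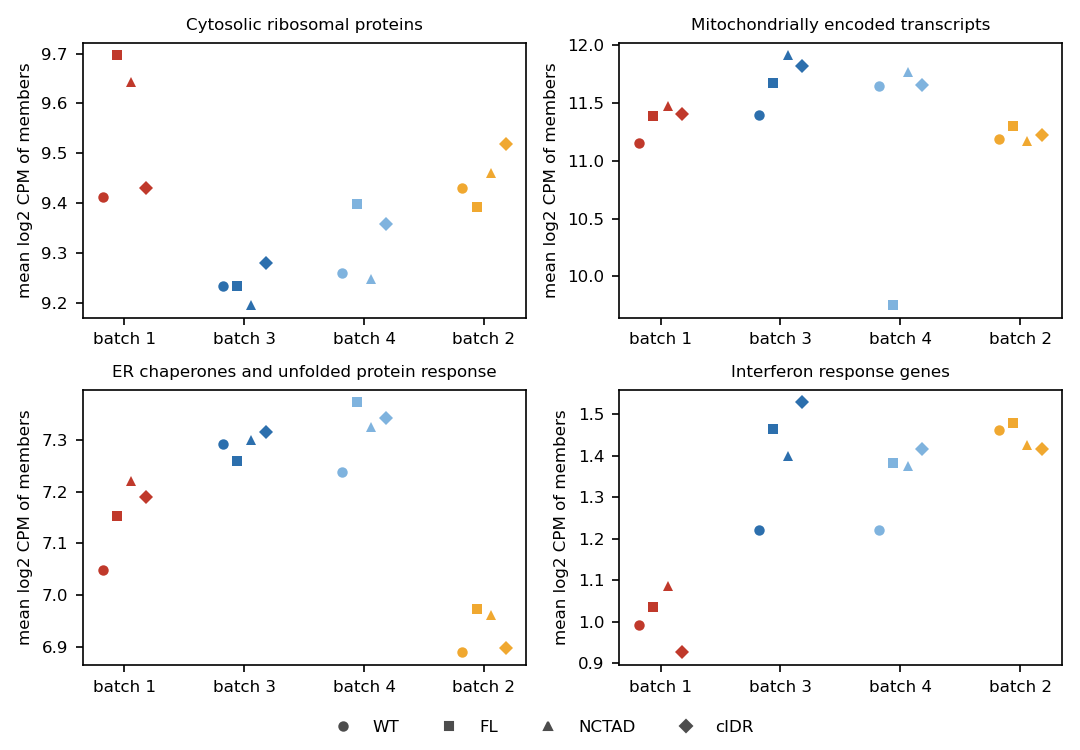
Each point is 1 library: the mean log2 CPM over the measured members of 4 gene lists, by batch (color, horizontal axis) and construct (shape). Ribosomal protein genes are higher and ER chaperone and interferon response genes lower in batch 1 than in batches 3 and 4, and FL of batch 4 stands apart in mitochondrially encoded transcripts at 9.75, against 11.39 for the nearest library of batches 3 and 4.

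Energy metabolism showed smaller differences. Nuclear-encoded subunits of the respiratory chain had 10 of 48 members called higher and none lower, or 20.8% called against 14.7% of all genes tested. Their median was 0.13 and their transcripts were short (0.358 of the median length). COX7A2, a subunit of cytochrome oxidase, read 85.5, 113, 105 and 93.1 CPM against 71.9 to 92.1 CPM, a log2 difference of 0.34 ± 0.07 with overlap at the WT library. Of the 15 mitochondrially encoded transcripts none was called, and their median was -0.14. The FL library of batch 4 held 2.55% of its counts in these transcripts, against 7.3% or more in the other libraries of batches 3 and 4 and 6.2% to 7.55% in batch 1. Without that library, 10 of the 15 were called lower in batch 1, at a median of -0.32.

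Among 20 glycolytic genes 7 were called higher and 1 lower, with a median of 0.10. The aldolase ALDOC led them, at 33.3, 42.8, 44.1 and 48.0 CPM in batch 1 against 20.4 to 29.8 CPM with a median of 24.6. All 4 libraries were above the others, and the log2 difference was 0.74 ± 0.06. ENO1 (0.27 ± 0.05) and ALDOA (0.27 ± 0.04) differed less, and the lactate carrier SLC16A1 was the member called lower, at -0.19 ± 0.04. ALDOC is also a gene that hypoxia induces, while of the 36 hypoxia-induced genes 2 were called higher and 8 lower, with a median of -0.08. These calls are 27.8% of the list, against 14.7% of all genes tested. DDIT4, a hypoxia and stress gene that restrains mTORC1, was higher (0.30 ± 0.05), whereas STC2 (-0.30 ± 0.05), the histone demethylase KDM3A (-0.33 ± 0.05) and the collagen hydroxylase subunit P4HA2 (-0.34 ± 0.07) were lower. In batch 2 the same list had a median of 1.05 against the same 8 libraries.

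Of 22 measured ER chaperones and genes of the unfolded protein response 10 were called lower in batch 1 and 1 higher, with a median of -0.17. The member called higher, SEC61B (0.25 ± 0.06), was the only one with a positive difference. DNAJC3, a co-chaperone that also restrains the stress kinase PERK, read 55.4, 50.3, 58.1 and 59.9 CPM in batch 1 against 73.4 to 86.6 CPM with a median of 76.2. Its groups were apart, at -0.48 ± 0.06. HYOU1, a large chaperone of the ER, read 316, 351, 342 and 370 CPM against 409 to 445 CPM, a difference of -0.32 ± 0.04 without overlap. SEL1L, a scaffold of ER-associated degradation, differed by -0.53 ± 0.10 and PDIA4, a disulfide isomerase, by -0.24 ± 0.04. HSPA5 (BiP), the main chaperone of the compartment, was called at -0.21 ± 0.04 with overlap at its FL library. On log2(TPM + 1) the median was -0.25 with 6 called lower and none higher, and against batch 4 alone no member was called.

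Of 22 measured interferon response genes 8 were called lower, none was called higher and 14 were not called, with a median of -0.35. Positive differences were seen in 5 of them. OAS3, a sensor of double-stranded RNA, read 132, 100, 139 and 145 CPM in batch 1 against 170 to 200 CPM with a median of 186. No library overlapped, at -0.54 ± 0.08. OAS1 read 14.9, 17.1, 16.5 and 15.8 CPM against 17.2 to 21.6 CPM, a difference of -0.30 ± 0.05. Other called members were low in every library: the immunoproteasome subunit PSMB8 read 0.754, 0.848, 0.628 and 0.378 CPM against 1.019 to 1.502 CPM, and the helicase DDX60 0.566, 0.630, 0.279 and 0.432 CPM against 0.857 to 1.36 CPM. Among members with at least 10 counts in every library the median was -0.24, with 7 of 19 called lower. Against batch 3 alone 1 member was called and against batch 4 alone none, on log2(TPM + 1) 3 of 17 were called, and without the FL library of batch 1 5.

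The machinery that loads peptides on MHC class I, itself a target of interferon, was on the same side, with 5 of 15 measured members called lower and none higher and a median of -0.21. ERAP1, which trims the peptides, read 17.0, 12.8, 16.3 and 19.2 CPM against 21.6 to 25.1 CPM (-0.56 ± 0.09). TAPBP, which edits them, read 30.7, 34.1, 29.6 and 31.6 CPM against 35.7 to 39.5 CPM (-0.29 ± 0.05). Both were without overlap. PARP14, an interferon-induced ADP-ribosyltransferase, was among the 15 genes with the largest negative differences, at 4.90, 3.83, 3.81 and 4.37 CPM against 7.45 to 8.78 CPM (-0.93 ± 0.10).

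Matrix and adhesion genes had calls in both directions. Of 37 measured members of the extracellular matrix and integrin list 14 were called lower and 2 higher, with a median of -0.29. The lower calls numbered 9 without the NCTAD library of batch 1, and 3 against batch 4 alone. SPARC, a secreted collagen-binding protein, read 15.4, 16.6, 21.2 and 19.5 CPM in batch 1 against 24.9 to 31.8 CPM with a median of 28.4. It did not overlap, at -0.66 ± 0.08. Among basement membrane genes, NID1 read 0.440, 0.218, 0.651 and 0.621 CPM against 1.43 to 2.11 CPM, and the collagen IV chain COL4A1 0.126, 0.121, 0.186 and 0.189 CPM against 0.482 to 1.21 CPM. NID2, the other nidogen, was 1 of the 2 members called higher, at 17.6, 21.9, 21.0 and 21.0 CPM against 9.97 to 14.1 CPM (0.71 ± 0.08). The other was ITGB5 (0.33 ± 0.05). Integrin ITGA11, a collagen receptor, was among the genes with the largest negative differences, at 8.51, 5.45, 6.90 and 10.4 CPM against 13.5 to 19.4 CPM (-1.05 ± 0.14). With at least 10 counts in every library, which kept 33 members, the median was -0.22. The 29 members left on log2(TPM + 1) had a median of -0.05 with 4 called lower and 2 higher, where the median of all genes was -0.056. The list's transcripts were long, at 2.72 times the median length. With length and GC trends taken out, its median was -0.19 with 13 called lower and 4 higher.

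Feedback genes of TGF-beta, BMP and activin signaling had 9 of 20 measured members called lower and none higher, with a median of -0.36. Against batch 4 alone 2 of 19 were called lower. LTBP1, which tethers latent TGF-beta to the matrix, read 9.26, 9.09, 8.37 and 9.12 CPM against 14.2 to 18.5 CPM with a median of 16.4. The 4 libraries of batch 1 were nearly equal and all below the others, at -0.89 ± 0.07. SMAD6, an inhibitor of BMP signaling, read 34.2, 31.4, 34.6 and 35.9 CPM against 51.4 to 62.9 CPM (-0.78 ± 0.07). The BMP targets ID2 and ID1, inhibitors of differentiation factors, differed by -0.40 ± 0.04 and -0.33 ± 0.04 and did not overlap. In batch 2 SMAD6, ID1 and ID2 were lower still, with 20.2 to 24.5 CPM for SMAD6.

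Neuroblastoma cells can take an adrenergic or a mesenchymal state. Markers of the latter had 9 of 20 called lower and 2 higher, with a median of -0.24. The intermediate filament VIM read 17.1, 16.1, 19.0 and 19.2 CPM against 26.7 to 31.4 CPM (-0.74 ± 0.06). PDGFRB, a growth factor receptor, was higher at 88.4, 109, 95.8 and 96.97 CPM against 63.0 to 72.9 CPM (0.50 ± 0.06), and so was TWIST1, at 0.31 ± 0.05. Adrenergic markers had no common direction, with 7 of 30 called higher and 3 lower and a median of -0.01. MYCN, the amplified oncogene of this line, read 3320, 3168, 3365 and 3400 CPM in batch 1 against 2597 to 2803 CPM with a median of 2683. All 4 libraries were above the others, at 0.29 ± 0.04. HAND2, a core factor of the adrenergic state, differed by 0.30 ± 0.05, and INSM2 by 0.32 ± 0.04.

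Genes of axon guidance, neurotrophin receptors and neuronal adhesion had 18 of 42 called lower, 3 higher and a median of -0.19. Against batch 4 alone 3 were called lower. The neurotrophin-3 receptor NTRK3 (TrkC) had the largest negative difference of all genes named by rank. It read 4.46, 2.98, 2.84 and 3.64 CPM in batch 1 against 8.27 to 9.32 CPM with a median of 9.07. No library came near the other set, at -1.38 ± 0.11. NRP1, a co-receptor of semaphorins and VEGF, read 49.97, 56.9, 59.2 and 62.1 CPM against 84.5 to 98.7 CPM (-0.70 ± 0.05), and the semaphorin receptor PLXNA2 36.3, 37.7, 50.8 and 47.4 CPM against 64.3 to 87.9 CPM (-0.81 ± 0.07). All of these were without overlap. The list's transcripts were long, at 2.27 times the median length, and with length and GC trends taken out its median was -0.20 with 20 called lower and 5 higher. Of 36 members tested on log2(TPM + 1), 10 were called lower and none higher, and on log2(TPM + 0.1) 11 and none.

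Release and signaling genes gave a mixed picture. Synaptic vesicle genes had 6 of 30 called lower and 1 higher at a median of -0.03, or 23.3% called against 14.7% of all genes tested. Their transcripts were long, at 1.81 times the median length, and in the 2 longest quintiles of all genes 9.26% and 17.8% were called lower. SYN2, which tethers vesicles, had the smallest p of the list, at 19.4, 17.2, 17.9 and 20.8 CPM against 28.0 to 33.1 CPM (-0.69 ± 0.07). Of 25 genes of catecholamine and peptide secretion 5 were called higher and 4 lower (36% called), with a median of -0.05. The neuropeptide ADCYAP1 (PACAP) was lower at 4.42, 2.47, 2.56 and 4.34 CPM against 5.45 to 7.83 CPM (-0.99 ± 0.13). PCSK1, a protease that cleaves prohormones, was lower at 2.28, 2.08, 2.84 and 2.43 CPM against 3.30 to 4.75 CPM (-0.74 ± 0.11). VGF, a precursor of secreted peptides and named after its values were seen, was higher at 555, 687, 551 and 643 CPM against 414 to 524 CPM (0.39 ± 0.06), and so was GCH1, which makes the cofactor of tyrosine hydroxylase (0.39 ± 0.05). CARTPT, a neuropeptide precursor, was called higher: it read 0.0210 CPM in WT and 1.38, 5.16 and 8.96 CPM in FL, NCTAD and cIDR of batch 1, against 0 to 1.95 CPM in batches 3 and 4. The difference of its construct response between batch 1 and batches 3 and 4 was 2.77 ± 1.24 on the log2 scale, which did not pass the interaction test (edgeR adjusted p = 0.972).

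**Figure D2:**
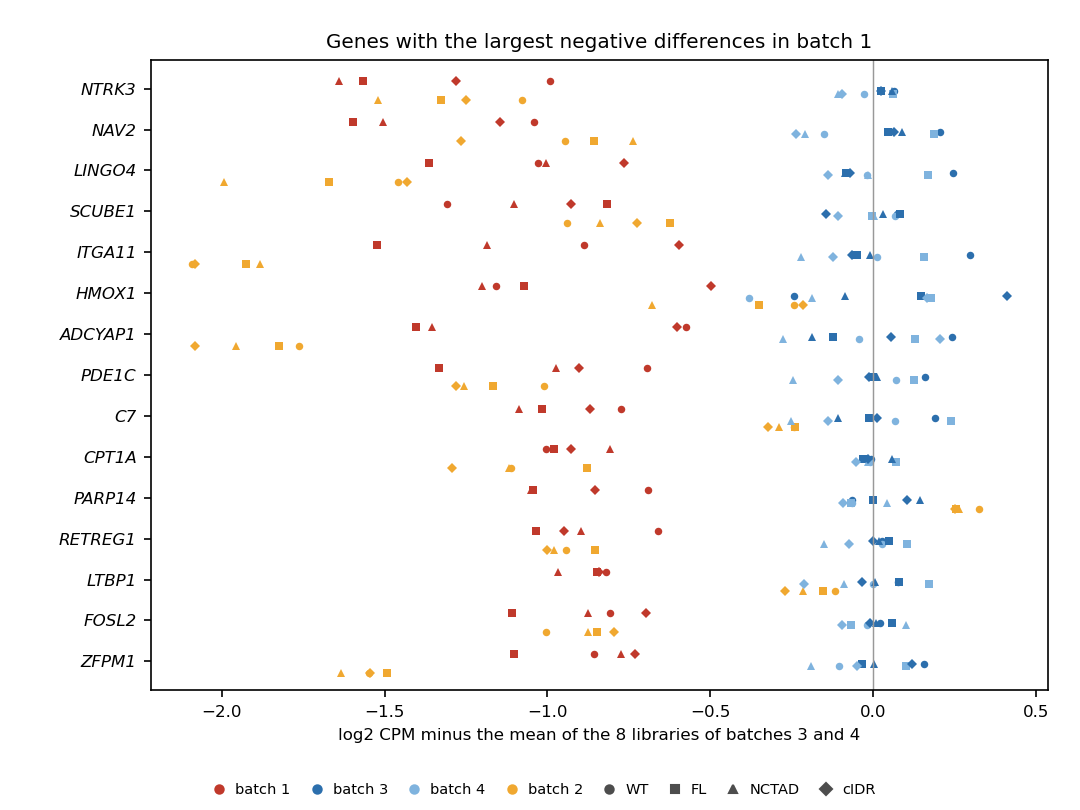
Each point is 1 library: log2 CPM minus the mean of the 8 libraries of batches 3 and 4, for the 15 genes with the largest negative differences by the rule, colored by batch and shaped by construct. No batch 1 library reaches the batch 3 and 4 libraries in any of the 15, which the rule required, and NTRK3 at the top has a fitted difference of -1.38.

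The genes with the largest differences by rank spanned many functions. They were the 15 in each direction among called genes that reached a mean log2 CPM of 2 and whose groups were apart. On the negative side, beside those already given, NAV2, a neuron navigator gene, read 10.8, 7.34, 7.83 and 10.1 CPM against 19.0 to 25.7 CPM (-1.34 ± 0.12). The secreted protein SCUBE1 read 12.4, 17.4, 14.3 and 16.1 CPM against 27.7 to 32.5 CPM (-1.05 ± 0.08), and the phosphodiesterase PDE1C 19.2, 12.3, 15.8 and 16.6 CPM against 26.2 to 34.7 CPM (-0.99 ± 0.09). LINGO4 (-1.06 ± 0.12), the complement component C7 (-0.95 ± 0.07), the ER-phagy receptor RETREG1 (-0.90 ± 0.08) and ZFPM1, a cofactor of GATA factors (-0.88 ± 0.09), completed the set together with HMOX1 and FOSL2, described below.

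On the positive side the differences were smaller. FAM78B had the largest, at 43.1, 35.3, 38.96 and 41.2 CPM against 17.8 to 23.6 CPM with a median of 22.2 (0.88 ± 0.07). DKK1, a secreted inhibitor of WNT signaling, read 56.7, 55.8, 70.2 and 62.5 CPM against 32.3 to 39.8 CPM (0.75 ± 0.04). The growth factor MDK read 22.1, 27.8, 28.4 and 21.6 CPM against 14.3 to 17.2 CPM (0.69 ± 0.08), and RGS2, which dampens G protein signaling, 27.5, 31.7, 29.1 and 24.3 CPM against 16.5 to 18.8 CPM (0.67 ± 0.06). LINC00639, CDH4, TMEM229A and OLMALINC also belonged to the 15, with differences from 0.72 ± 0.10 (OLMALINC) to 0.86 ± 0.09 (LINC00639). IGHA1 (0.86 ± 0.08) and the ribosomal pseudogene RPL21P134 (0.75 ± 0.15) have near-identical copies in the genome, so their values are uncertain. In batch 2, most of the 15 genes in each direction lay on the same side of batches 3 and 4 as in batch 1. FAM78B read 36.3 to 42.6 CPM there, DKK1 68.3 to 82.1, NTRK3 3.08 to 4.205 and FOSL2 23.1 to 26.7 CPM. Exceptions were ACAT2 (91.4 to 101 CPM), below batches 3 and 4, and PARP14 (9.45 to 9.95 CPM), above them. For RPL21P134, C7, LTBP1 and HMOX1 batch 2 overlapped them.

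Stress and early response genes were divided. HMOX1, which breaks down heme, read 2.81, 2.98, 2.72 and 4.45 CPM against 4.84 to 8.40 CPM with a median of 6.46 (-1.002 ± 0.10). Targets of NRF2, the oxidative stress factor, had 5 of 23 called in each direction with a median of 0.01: TKT (0.30 ± 0.04) and TXN (0.35 ± 0.05) were higher, and AKR1C2 (-0.49 ± 0.07) was lower. Metal-responsive genes were lower, with 4 of 6 called: the zinc exporter SLC30A1 (-0.62 ± 0.10) and the metallothionein MT2A (-0.65 ± 0.10) did not overlap, while MT1X (-0.74 ± 0.19) and the metal sensor MTF1 (-0.24 ± 0.07) did. Of 29 immediate early genes 10 were called higher and 7 lower, with a median of -0.08. FOSL2, an AP-1 subunit, read 26.5, 21.5, 25.3 and 28.6 CPM against 43.5 to 49.8 CPM (-0.88 ± 0.07), whereas another AP-1 subunit, JUND, read 170, 196, 188 and 169 CPM against 117 to 148 CPM (0.45 ± 0.06).

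Replication-dependent histone genes, whose mRNAs mostly lack a poly(A) tail, had 6 of 17 members called lower and none higher, with a median of -0.44. H2AC6 read 9.60, 8.14, 8.83 and 8.39 CPM against 10.8 to 16.3 CPM (-0.69 ± 0.08). Genes of DNA replication (median 0.02, 5 of 40 called higher and 1 lower) and mitosis (median -0.03, 3 of 35 higher and 4 lower) had medians near that of all genes. The p53, Notch, chromatin, splicing, clock and lysosome lists had medians between -0.07 and 0.01. Calls went both ways in 3 further lists with medians between 0.01 and 0.05: 4 higher and 4 lower of 17 NF-kB targets, 4 and 4 of 21 cytosolic heat shock proteins, and 3 and 5 of 25 amino acid stress genes of ATF4.

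**Figure D3:**
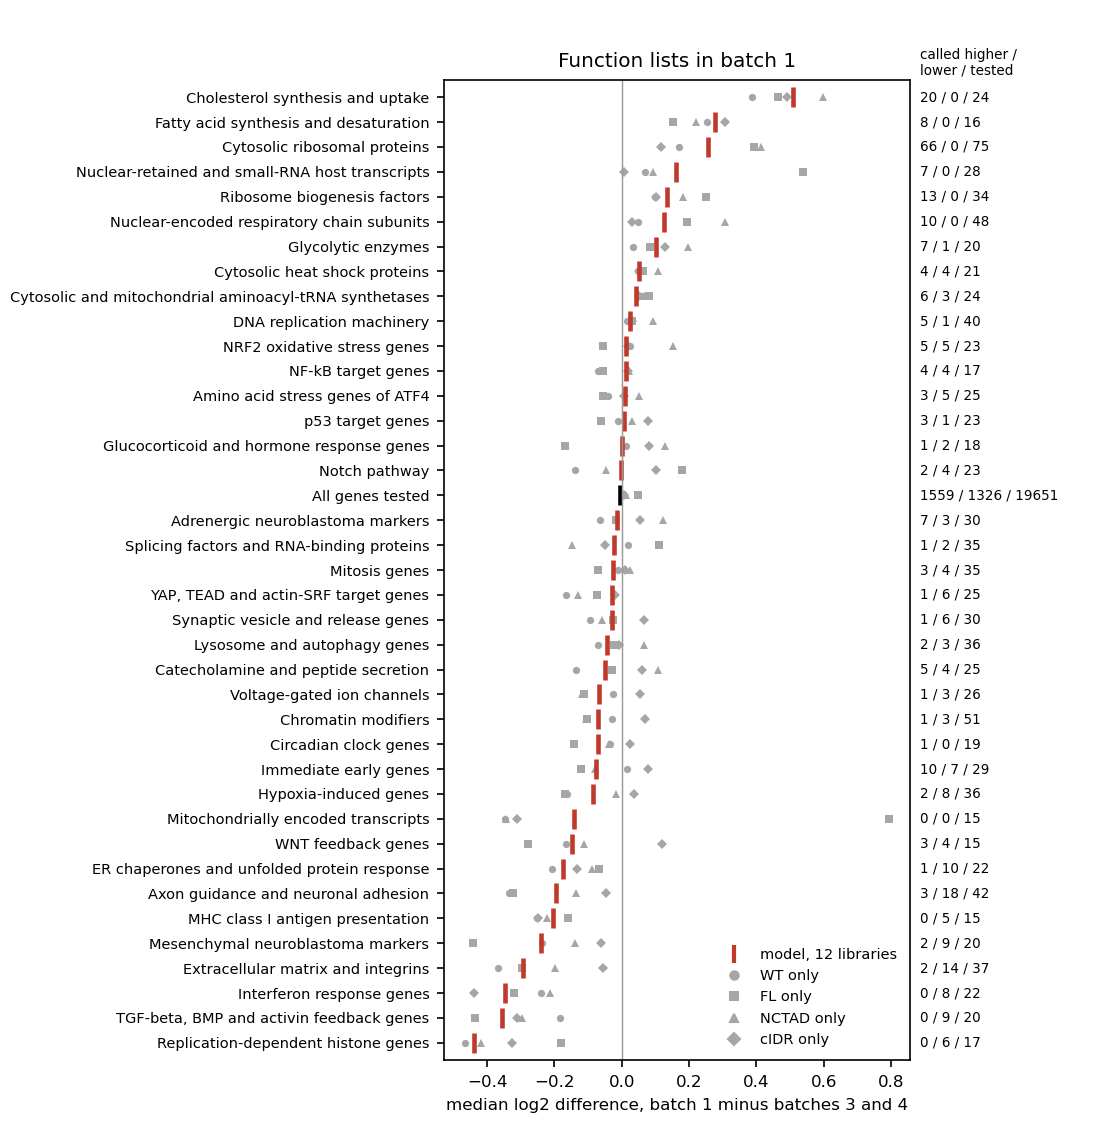
Rows are gene lists with at least 15 measured members; the bar is the median log2 difference (batch 1 minus batches 3 and 4) from the fit over 12 libraries and the gray symbols are the medians within each construct, with numbers of members called higher, called lower and tested at the right. The cholesterol list lies highest at 0.51 and histone genes lowest at -0.44, while the median over all genes tested (black) is -0.005.

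The batch difference varied with transcript length and GC content. Over 11553 genes with a mean log2 CPM of at least 2, Pearson's r between the log2 difference and effective length was -0.428 (Spearman's rho -0.485), and with GC content it was 0.402 (0.453) over 11364 genes. Genes share libraries and base composition, so these correlations across genes are descriptions without a p. Among the shortest quintile of genes 9.44% were called higher and 0.687% lower, and among the longest quintile 3.38% and 17.8%. In the quintile with the lowest GC content 1.52% were called higher and 13.5% lower, and in the quintile with the highest 17% and 2.67%. With both trends taken out, 2380 genes were called, of which 1560 had been called in the same direction before. The cholesterol genes then had 23 of 24 members called higher at a median of 0.43, and the ER list 17 of 22 called lower at -0.19.

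**Figure D4:**
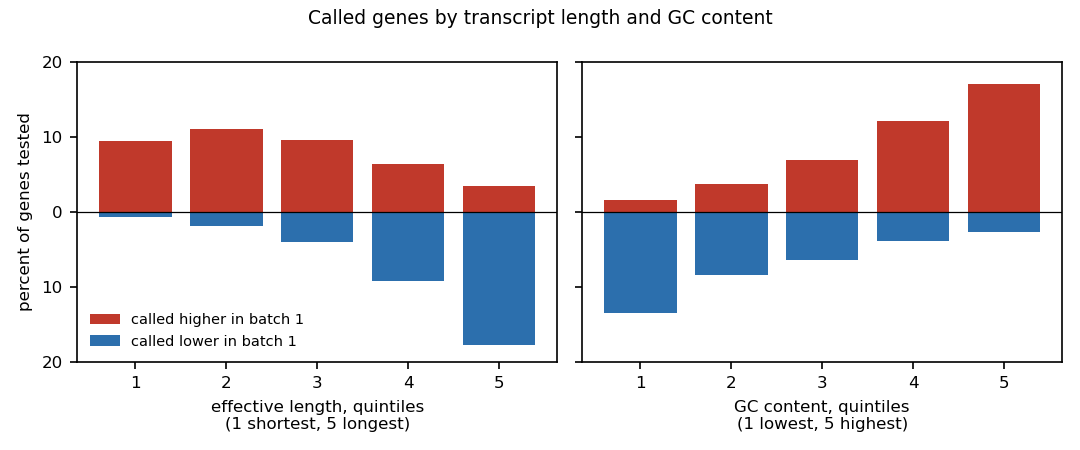
Bars give the percent of tested genes called higher (above 0) and lower (below 0) in batch 1, by quintile of effective length and of GC content. The share called lower runs from 0.687% in the shortest to 17.8% in the longest quintile, and the share called higher from 1.52% in the lowest to 17% in the highest GC quintile.

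Further comparisons were batch 4 against batch 3 and the construct response. Batches 3 and 4 were pooled with the differences between batches already known, so the number of calls between them is a description too. Against single batches, batch 1 had 752 calls (batch 3) and 95 (batch 4). Between batches 4 and 3, edgeR called 0 of 19651 genes (0%), with 316 at an unadjusted p under 0.05; DESeq2 called 9 and limma on log2(TPM + 1) none. The other asked whether the response to transfection, any construct minus WT, differed in batch 1 from that in batches 3 and 4. Here edgeR called 0 of 20604 genes (0%), with 839 at an unadjusted p under 0.05 and a smallest adjusted p of 0.972, and DESeq2 called none. With a single WT library in batch 1, that comparison rests on few libraries. EPAS1, which the constructs encode, checks the labels. The WT library of batch 1 read 13.0 CPM, and its FL, NCTAD and cIDR libraries read 1689, 2205 and 4065 CPM. In batches 3 and 4 the WT libraries held 17.3 and 14.3 CPM, and the transfected ones 3580 and 3181 (FL), 4230 and 3659 (NCTAD) and 5852 and 5831 (cIDR). EPAS1 was called lower in batch 1 (-0.69 ± 0.11), each transfected library of batch 1 was below its counterparts, the part of this in the other differences was not tested, and the difference in response was -0.53 ± 0.20 (log2; edgeR adjusted p = 0.972). HIF1A (-0.18 ± 0.10) and its partner ARNT (-0.15 ± 0.06) were not called. The HIF1A difference lay in FL (-0.70), with 0.03 in WT, -0.02 in NCTAD and -0.001 in cIDR.

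The labelled cell type was checked against adrenergic markers. PHOX2A, HAND2, GATA3, ISL1, DBH and MYCN were all present in the 12 libraries at 83.8 CPM (ISL1) or more, whereas TH, the enzyme that begins catecholamine synthesis, read only 0.857 to 3.603 CPM. Summed markers of other cell types overlapped in range between batch 1 and batches 3 and 4, the glial sums only just. Fibroblast markers summed to 437 to 475 CPM in batch 1 and 431 to 498 CPM in batches 3 and 4, with FAP at 0 in all 12 libraries. Most of that sum was THY1, at 318 to 349 CPM in batch 1 and 335 to 393 CPM in batches 3 and 4. Of the 7 fibroblast markers tested, PDGFRB was called higher (0.50 ± 0.06, without overlap) and DCN lower (-0.25 ± 0.07, with overlap). Glial markers summed to 20.6 to 22.6 against 22.6 to 25.1 CPM, epithelial markers to 11 to 12.4 against 10.2 to 15.1 CPM, and blood and endothelial markers to 1.43 to 1.77 against 1.39 to 2.44 CPM. KRT5, CD3E and HBB were at 0. The glial sums of batch 1 thus lay almost wholly below those of the other batches, and the part of this in the results was not tested. Among the 7 glial markers tested, NGFR was called lower (-0.78 ± 0.12) and S100B higher (0.59 ± 0.15), both without overlap. In bulk RNA, fewer cells of a kind and less RNA per cell cannot be told apart.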

How the data were processed

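RNA from 16 libraries of SK-N-BE(2) was sequenced, 4 construct groups in each of 4 labelled batches. The authors deposited estimated counts per gene, not scaled to depth or length, and TPM values, scaled by the authors to effective length and library. The submitters' processing notes name fastp, STAR, Salmon, featureCounts and the build GRCh38; versions and annotation are not given in the sources used here. Both tables hold 63187 genes.

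Counts were rounded to whole numbers, which altered by over 0.01 some 22.3% of the values above 0. The 12 libraries of batches 1, 3 and 4 were fitted with edgeR 4.0.16 (R 4.3.3; TMM, filterByExpr, quasi-likelihood test) with construct group and an indicator of batch 1 as terms, calls being Benjamini-Hochberg adjusted p under 0.05. The SE is the log2 difference divided by the square root of F. Library totals (38.6 to 56.1 M counts) limit the precision of genes at few counts. Batch 4 against 3, and the construct response in batch 1 against batches 3 and 4, were fitted in the same way. DESeq2 1.42.0 and limma 3.58.1 were alternatives, along with other scalings, filters and left-out libraries. The fits were also run on simulated counts with known changes, drawn independently for each library. Random shifts shared by the libraries of a batch were not simulated, so their effect on the calls was not tested.

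The labels' batch numbers equal the replicate numbers and so pair libraries across constructs. Deviations from the construct means correlated by 0.033 to 0.177 within batch 1, -0.042 to 0.154 within batch 3 and -0.081 to 0.07 within batch 4, against -0.252 to 0.167 between libraries of different batches. No 2 libraries of the same construct agreed within sampling noise; pairs across constructs were not compared.

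Named genes were the 15 with the largest differences in each direction among called genes without overlap and with a mean log2 CPM of at least 2, up to 4 called members with the smallest p in each of 45 function lists, and EPAS1, MYCN, HIF1A and ARNT. Further members were named after their values were seen. The libraries, lists and tests were chosen with earlier results of these data known. The text gives part of this set, and some genes are not reported here.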

Additional observations from a re-analysis of the deposited data

Results flagged for a closer look

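In 5 of 164 sets of 4 or 8 libraries looked at (named genes, list means and library measures), the highest or lowest library stood far from the rest by Dixon's criterion at 95%, which chance alone gives in about 1 of 20 sets. The share of counts in mitochondrially encoded transcripts was 2.55% in FL of batch 4, where the nearest library of batches 3 and 4 had 7.3%. The mean log2 CPM of these transcripts there was 9.75, against 11.39 for the nearest library. Within batch 1 the WT library was lowest in that share, with 6.2% against 7.42% for the nearest. The WT library of batch 1 also had the lowest share of counts in its 10 most abundant genes, 6.78% against 8%. The mean log2 CPM of the retinoic acid response genes was 5.47 in WT of batch 3, against 5.4 for the nearest of batches 3 and 4.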

How the results depend on the processing

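The 2885 genes called for batch 1 became 595 (216 higher, 379 lower) on log2(TPM + 1) and 602 (209 higher, 393 lower) on log2(TPM + 0.1), 752 against batch 3 alone, 95 against batch 4 alone, and 115 with an absolute log2 difference of at least 1. They numbered 2843 with DESeq2-type size factors, 3651 with DESeq2, 3644 with no low-count filter, 3267 with at least 10 counts in every library, 3397 without the construct term, 2106 without the WT libraries and 2380 with length and GC trends removed, which was added after seeing the data. With batches 3 and 4 as separate levels (the replicate block) 2386 were called, and the block gave 0 for the construct response. Leaving out 1 library at a time gave 1204 (without NCTAD of batch 1) to 3110 (without cIDR of batch 1), and 1879 without FL of batch 1. Batch 4 against 3 gave 9 calls with DESeq2, 6 with no filter and 0 whichever library was left out. The construct response gave 127 with no filter, 9 without batch 4 and 0 to 1 with 1 library left out; without the WT library of batch 1 it could not be fitted.

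On log2(TPM + 1) and log2(TPM + 0.1), list medians were 0.38 and 0.39 for cholesterol, 0.094 and 0.097 for fatty acid, -0.251 and -0.252 for ER, 0.054 and 0.054 for ribosome biogenesis, and -0.051 and -0.112 for matrix genes, where the median of all genes was -0.056 and -0.072. The interferon median was -0.238 on log2(TPM + 1) and -0.241 with at least 10 counts in every library. The ribosomal protein median was 0.081 with length and GC trends removed. With 1 library left out, medians ranged over 0.47 to 0.53 for cholesterol, 0.252 to 0.292 for fatty acid, -0.185 to -0.144 for ER, 0.212 to 0.313 for ribosomal proteins, 0.108 to 0.165 for ribosome biogenesis, -0.258 to -0.159 for axon guidance, -0.323 to -0.231 for matrix, -0.398 to -0.288 for TGF-beta and -0.345 to -0.292 for interferon genes. Of 3991 values of 167 named genes under the alternatives, 3436 kept direction and call, 552 kept direction only, 1 gained a call, and 2 reversed, both with length and GC trends removed: ASPM 0.06 and ATP5F1D -0.039. The causes of these shifts were not tested.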
